A study of Mus musculus with 4 samples.

Results

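The Slc25 family of mitochondrial carriers was followed in RNA that an antibody to CPEB3 pulled down from mouse brain. Its members were taken as the non-control spots of the array whose gene name starts with Slc25a, which gave 47 of the 34821 gene names on the array, measured by 58 probes on 76 spots. Slc25 carriers are small proteins of the mitochondrial inner membrane, encoded in the nucleus, made in the cytosol and imported. Each moves its own substrates (adenine nucleotides, phosphate, carboxylates, amino acids, coenzymes or metals) between cytosol and matrix. In brain they carry ATP out of the matrix to the cytosol and move glutamate and aspartate between these compartments. CPEB3 is a cytoplasmic RNA-binding protein of neurons that recognises uridine-rich stretches, mostly in 3′ untranslated regions, and controls translation of the bound mRNA.

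The samples were corticohippocampal lysates of male C57BL/6 mice aged 8 weeks, with no genetic change or drug named in the labels. Lysate was kept for 3 h with beads that carried either CPEB3 IgG (2 arrays) or control IgG (2 arrays), and 0.2 ug of each recovered RNA was amplified, labelled with Cy3 and put on a 1-colour Agilent array. The series title places the work in a study of Nr3c1 mRNA translation and resilience. No array of the input lysate was analysed here, so a value sets RNA recovered by one antibody against RNA recovered by the other. Whether the replicates are separate mice or repeats of one lysate is not in the labels, and the p-values therefore cover the spread of these arrays, possibly a technical one.

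A level below is the log2 processed signal of a probe minus the 75th percentile of its array, and a difference is the CPEB3 IgG mean minus the control IgG mean of such levels. Each gene was read by its brightest probe, and a gene was called higher or lower at a Benjamini-Hochberg adjusted p under 0.05 in limma, over all 27687 genes fitted. Between 68.0% and 73.5% of the probes were well above background on each array, none of the spots was saturated, and the number of arrays limits the precision. Pearson's r between replicates was 0.988 for the CPEB3 antibody and 0.979 for the control, and between arrays of different groups it was 0.925 to 0.938. The arrays shared 1 slide, and their position on it separated the groups, so position and antibody cannot be told apart. Of the brain markers, 6 of 6 for neurons, 4 of 4 for oligodendrocytes, 4 of 4 for astrocytes and 3 of 3 for microglia were detected, while Alb (liver) and Prm1 (testis) were not well above background. Tnp1 (testis, levels of -2.78 to -1.22) and Cidea (brown fat, 0.41 to 1.19) were above it. Among these 17 brain markers, Rbfox3 (neurons, 0.70) and Slc1a3 (astrocytes, 3.16) were higher with CPEB3 IgG, and Aldh1l1 (astrocytes, -3.03) and Aif1 (microglia, -2.34) were lower, each by its brightest probe. Other probes went the opposite way: those of Rbfox3 at 1016 and 1461 were called lower (-1.59 and -1.63), and that of Aldh1l1 at 4005 gave 0.59 and did not pass. Markers not called by their brightest probe also had other probes called lower. These were Gfap (-1.38 and -1.88), Mbp (-1.30 and -1.46), Camk2a (-1.13), Mobp (-0.94) and Csf1r (-0.67). None of the dimmer marker probes was called higher. The part of these markers in the differences of the carriers was not tested. A marker difference sets RNA recovered by one antibody against RNA recovered by the other, so by itself it does not measure cell number or RNA per cell.

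Of the 47 carriers, 41 could be fitted. With CPEB3 IgG, 11 were higher, 6 were lower and 24 did not pass the test, so that 17 were called in all, against a background of 39.4% of all genes called. The iron and glutathione carriers (4 of 4), coenzyme-type carriers (4 of 9), ATP-Mg/phosphate carriers (2 of 4) and 1 amino acid carrier supplied the higher genes, and the ADP/ATP and phosphate carriers (3 of 3), 2 carboxylate carriers and 1 glutamate carrier supplied the lower ones. The largest differences were 2.63 ± 0.18 (SE) for Slc25a24 and -2.33 ± 0.20 for Slc25a5. The higher share was 26.8% of the 41, against 19.2% of all genes, and the lower share was 14.6%, against 20.2% of all genes, so the counts alone lie near the background in both directions. The median difference was 0.27 for the carriers and -0.14 for all genes, and 61.0% of the carriers had a difference above 0, against 43.1% of all genes. In 23 carriers both CPEB3 IgG arrays lay above both control arrays (31.6% of all genes did), in 13 both lay below (41.3% of all genes), and in 5 the groups overlapped.

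Scaling moved this split. The median of all genes shifted by 0.17 with quantile, 0.29 with median, 0.15 with cyclic loess and 0.72 with spike-in scaling, and the median of the carriers was above that of all genes by 0.41 in the main setting, 0.24 with quantile scaling and 0.29 with cyclic loess; median and spike-in scaling shift all genes alike and leave this gap as it is by construction. Among all calls the higher share was 48.7%, rising to 68.4% with median scaling and 88.0% with spike-in scaling. For the carriers, 15 were higher and 5 lower with median scaling, against 24.5% and 11.3% of all genes. With spike-in scaling 11 carriers were higher and 1 lower (Slc25a5), against 18.3% and 2.50% of all genes. The calls of Slc25a5, Slc25a16, Slc25a23, Slc25a24, Slc25a29, Slc25a32, Slc25a42 and Slc25a51 were kept under all 17 alternative settings of processing and replicates that were run.

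**Figure D1:**
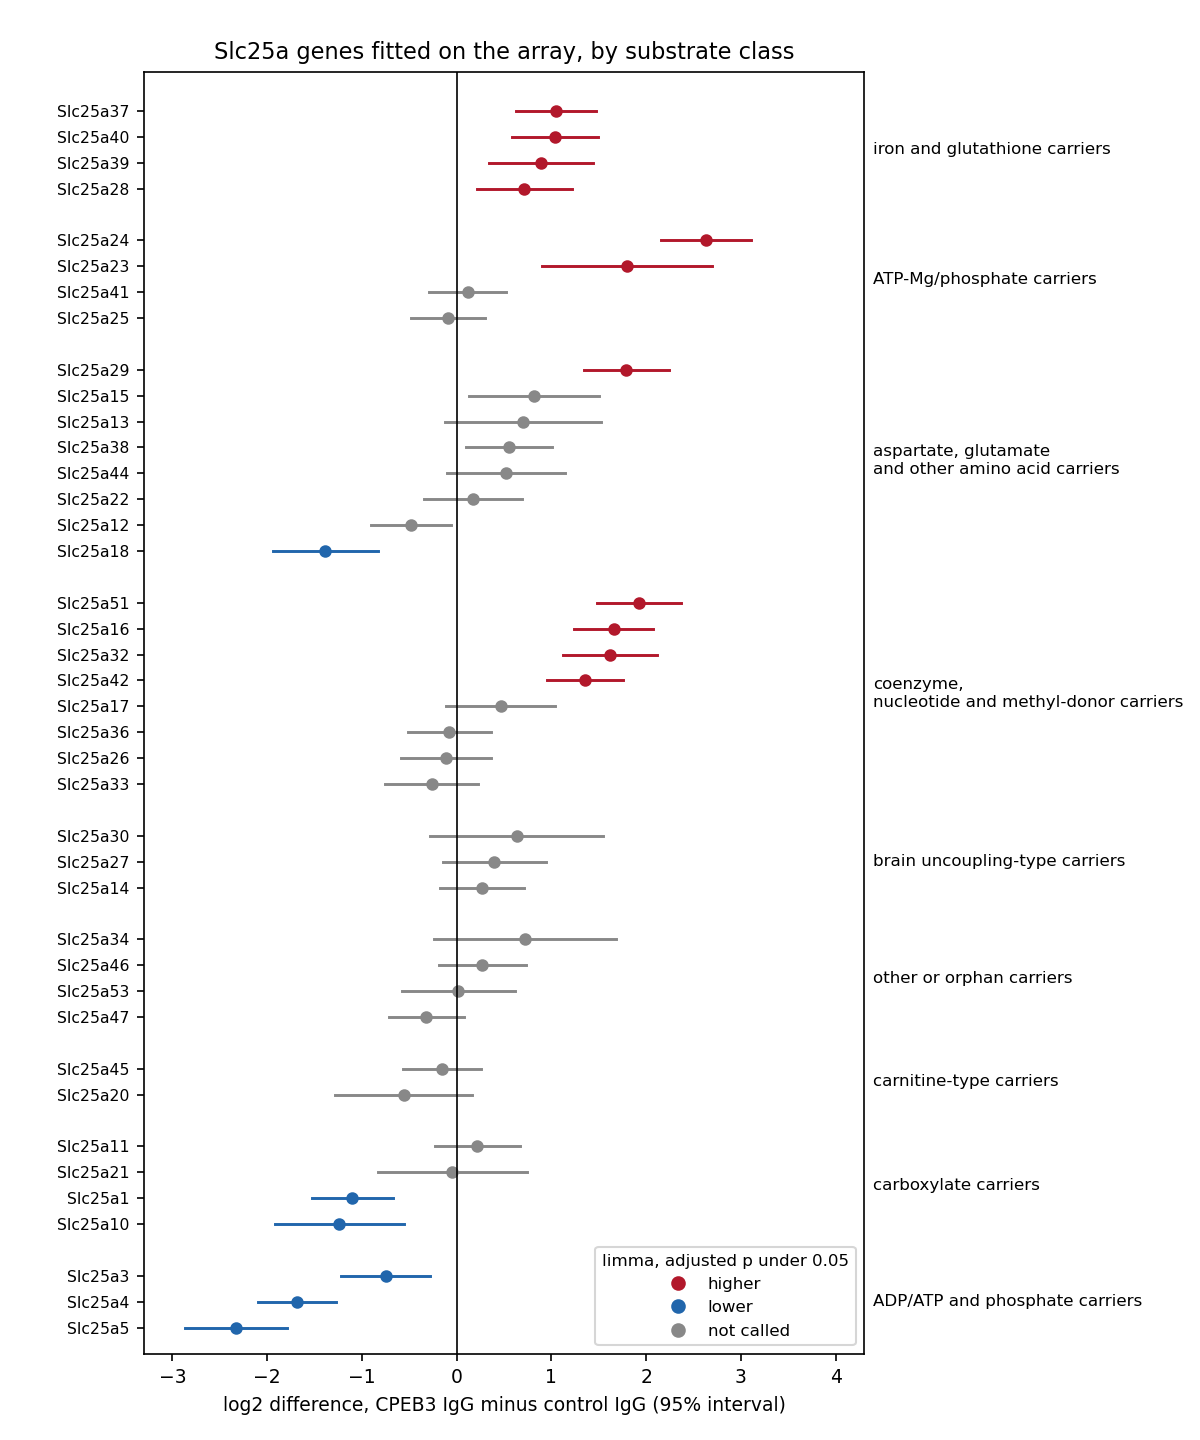
Log2 difference (CPEB3 IgG minus control IgG, x axis) of the fitted Slc25a genes named in the text, grouped by substrate class, with points for estimates, bars for 95% intervals and colour for the limma call. The 4 iron and glutathione carriers lie to the right of 0 and the 3 ADP/ATP and phosphate carriers to its left.

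The ADP/ATP and phosphate carriers, which feed ATP synthase with ADP and phosphate and hand ATP to the cytosol, were lower with CPEB3 IgG in 3 of 3 fitted genes. Of all genes, 20.2% were called lower. Slc25a4, the ADP/ATP carrier of heart, muscle and brain, was the brightest carrier probe, with 10 spots per array. Its probe lies at chr8:47292828-47292887 (minus strand, mm9) and is shown whole, because it is the most strongly detected sequence of the family:
Slc25a4: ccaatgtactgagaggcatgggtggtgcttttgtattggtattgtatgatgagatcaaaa
The levels of Slc25a4 were 5.72 and 5.88 on the CPEB3 IgG arrays, against 7.49 and 7.48 on the control arrays. Both antibody arrays were below both control arrays, and the spots of 1 array varied by 2.92% to 5.26% (coefficient of variation). The difference was -1.69 ± 0.15, which is 3.22-fold lower, with an adjusted p of 0.00432. Slc25a5, the more widely expressed ADP/ATP carrier, had levels of 1.72 and 1.32 on the CPEB3 IgG arrays, against 3.85 and 3.85 on the control arrays. Its groups were separated by more than the range within either, with a difference of -2.33 ± 0.20, 5.02-fold lower, and an adjusted p of 0.00409. Slc25a3, the phosphate carrier, had levels of 3.55 and 3.75 against 4.29 and 4.51, so that its groups did not overlap. The difference of Slc25a3 was -0.75 ± 0.18 (adjusted p 0.0331), and a second probe gave -0.81. The gene and its second probe both lost their calls with median, spike-in and no scaling and with no filter on dim probes. The second probe gave -0.52, -0.099, -0.85 and -0.81 in these settings. With 1 array left out the second probe ranged from -0.83 to -0.80. The call of Slc25a3 was lost when any 1 of the 4 arrays was left out (-0.86 to -0.64) and with median scaling (-0.46), and with spike-in scaling Slc25a3 was at -0.034 and Slc25a4 at -0.97, neither of them called. Slc25a31, the ADP/ATP carrier of testis, was not well above background on any array, with signals of 7.62, 9.31, 8.29 and 9.81.

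The ATP-Mg/phosphate carriers exchange adenine nucleotide for phosphate and set the nucleotide pool of the matrix. Of 4 fitted genes, 2 were higher with CPEB3 IgG and none was lower, against 19.2% and 20.2% of all genes. Slc25a24, a calcium-regulated member of this group, had the largest positive difference in the family. Its levels were 0.90 and 1.01 on the CPEB3 IgG arrays, against -1.82 and -1.54 on the control arrays. Both control arrays lay below the 75th percentile and both antibody arrays above it. The difference of 2.63 ± 0.18 is 6.20-fold, with an adjusted p of 0.00386. Slc25a23, its calcium-regulated relative, had levels of 1.86 and 2.73 against 0.55 and 0.45. The antibody arrays stood further apart from each other than the control arrays did, but above both, and the difference was 1.80 ± 0.33 (adjusted p 0.0183). Slc25a25 (-0.091) and Slc25a41 (0.12) did not pass the test.

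The coenzyme, nucleotide and methyl-donor carriers bring cofactors made in the cytosol into the matrix. Here 4 of 9 genes were higher with CPEB3 IgG and none was lower, against 19.2% and 20.2% of all genes. Slc25a51, the NAD carrier, had levels of 4.24 and 4.45 on the CPEB3 IgG arrays, against 2.45 and 2.38 on the control arrays. The groups were far apart compared with the spread within them, with a difference of 1.93 ± 0.16, 3.80-fold, and an adjusted p of 0.00409. A second probe of Slc25a51 gave 1.36 and was called as well. Slc25a16, linked to coenzyme A in the matrix, had levels of 0.94 and 1.05 against -0.73 and -0.60. Its groups did not overlap, and the difference was 1.66 ± 0.15 (adjusted p 0.00444). Slc25a32, which carries folate and flavin cofactors, had levels of 1.23 and 0.91 against -0.58 and -0.52. It too showed no overlap, with a difference of 1.62 ± 0.18 (adjusted p 0.00615). Slc25a42, a carrier of coenzyme A, was higher by 1.36 ± 0.15 (adjusted p 0.00576). The peroxisomal carrier Slc25a17 (0.46), the S-adenosylmethionine carrier Slc25a26 (-0.11) and the pyrimidine nucleotide carriers Slc25a33 (-0.27) and Slc25a36 (-0.078) did not pass the test.

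The iron and glutathione carriers serve haem and iron-sulphur cluster synthesis, and 4 of 4 were higher with CPEB3 IgG. The differences were 1.05 ± 0.16 for Slc25a37 (mitoferrin of the erythroid lineage, adjusted p 0.0113) and 0.71 ± 0.19 for its paralog Slc25a28 (adjusted p 0.0434). In the limma fit over probes the same Slc25a28 probe had an adjusted p of 0.0510 and was not called. The glutathione carrier Slc25a39 gave 0.89 ± 0.20 (adjusted p 0.0306) and its paralog Slc25a40 gave 1.04 ± 0.17 (adjusted p 0.0134). Of all genes, 19.2% were called higher. In each of the 4 genes both CPEB3 IgG arrays were above both control arrays, as they were in 31.6% of all genes. With no scaling between arrays 0 of 4 were called in limma (0.68 to 1.01, adjusted p 0.0974 to 0.311). Of all genes, 11.2% were then called higher. With spike-in scaling Slc25a28 (1.43) was not called, and with no filter on dim probes neither Slc25a28 (0.71) nor Slc25a39 (0.89) was. The calls sat close to the threshold: Slc25a28 was not called without any 1 of the 4 arrays (0.54 to 0.88) or with quantile (0.59) or cyclic loess scaling (0.62), nor Slc25a39 without either CPEB3 IgG array (0.89 in both cases) or without control IgG replicate 1 (0.68). Slc25a37 was not called without CPEB3 IgG replicate 1 (1.07) or 2 (1.02) or by the mean of its probes (0.68), and Slc25a40 not without CPEB3 IgG replicate 1 (0.92).

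Of the 8 fitted amino acid carriers, Slc25a29 was higher, Slc25a18 was lower and 6 did not pass the test. Of all genes, 19.2% were called higher and 20.2% lower. Slc25a29, which carries arginine and lysine, had levels of 2.60 and 2.44 on the CPEB3 IgG arrays, against 0.64 and 0.82 on the control arrays. The groups did not overlap, and the difference was 1.79 ± 0.17 (adjusted p 0.00438). Slc25a18, the glutamate carrier typical of astrocytes, had levels of 1.08 and 0.74 against 2.43 and 2.16. Here both control arrays were the higher ones, and the difference was -1.39 ± 0.21 (adjusted p 0.0108). Without CPEB3 IgG replicate 2 it was -1.22 and no longer called. Slc25a22, the other glutamate carrier, had levels of 3.24 and 3.49 against 3.05 and 3.33, which overlap, and a difference of 0.18 (adjusted p 0.504). Slc25a12, the aspartate/glutamate carrier of neurons and part of the malate-aspartate shuttle, had levels of 3.37 and 3.35 against 3.75 and 3.94. The antibody arrays were the lower ones, but the difference of -0.48 ± 0.16 did not pass (adjusted p 0.0745). Its paralog Slc25a13 (0.70), the ornithine carrier Slc25a15 (0.82), the glycine carrier Slc25a38 (0.55) and Slc25a44 (0.52), a carrier of branched-chain amino acids, did not pass either. Slc25a15 was dim, with levels of -3.74 and -3.55 against -4.17 and -4.76, and was well above background on 3 arrays. It was called higher with quantile (1.18), median (1.11), cyclic loess (1.19) and spike-in scaling (1.53). With normexp background it gave 0.25 and was not called, and without control IgG replicate 1 its difference was 1.11. Slc25a38 was called higher with median scaling (0.84), normexp background (0.54), the intensity trend and the filter on all 4 arrays (both 0.55), Slc25a44 with median scaling (0.81), and Slc25a12 lower with normexp background (-0.52) and the intensity trend (-0.48). The second ornithine carrier, Slc25a2, was not well above background on any array.

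The carboxylate carriers exchange citrate, malate, oxoglutarate and related acids, and 2 of 4 were lower with CPEB3 IgG, against 20.2% of all genes. Slc25a1, the citrate carrier that supplies cytosolic acetyl groups, had levels of 0.44 and 0.58 on the CPEB3 IgG arrays, against 1.68 and 1.55 on the control arrays. The groups did not overlap, with a difference of -1.10 ± 0.16 (adjusted p 0.0101). Slc25a10, the dicarboxylate carrier, was dim, with levels of -4.84 and -4.27 against -3.43 and -3.20. Both antibody arrays were below both controls, and the difference was -1.24 ± 0.25 (adjusted p 0.0233). Slc25a1 was not called without CPEB3 IgG replicate 1 (-1.03), and Slc25a10 not without CPEB3 IgG replicate 1 (-0.95), without control IgG replicate 2 (-1.12) or with normexp background correction (-0.39). The oxoglutarate carrier Slc25a11 (0.22) and the oxodicarboxylate carrier Slc25a21 (-0.044) did not pass. Slc25a20, the carnitine/acylcarnitine carrier of fatty acid oxidation (-0.56), and Slc25a45 (-0.15), placed with it, did not pass either.

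The uncoupling-type carriers of brain were detected, and none of the 3 passed the test. Of all genes, 39.4% were called in either direction. Slc25a14 had levels of 3.87 and 3.65 on the CPEB3 IgG arrays, against 3.46 and 3.52 on the control arrays. The antibody arrays were slightly above the controls, by 0.27 ± 0.16 (adjusted p 0.259). Slc25a27 had levels of 1.66 and 1.79 against 1.13 and 1.53, again without overlap, and a difference of 0.40 ± 0.20 (adjusted p 0.191). Slc25a30 was at 0.63 ± 0.34 (adjusted p 0.209). Slc25a27 was called higher with median scaling (0.69), just past the threshold. Of the 8 other or orphan carriers, 4 could be fitted and none passed: Slc25a34 (0.72), Slc25a46 (0.27, an outer membrane protein of mitochondrial fission and fusion), Slc25a47 (-0.32, known from liver) and Slc25a53 (0.019). Slc25a46 was called higher by the mean of its probes (0.69) or its probe nearest the 3′ end (1.11). Slc25a43, Slc25a48 and Slc25a54 were well above background on fewer than 2 arrays. Slc25a35 was bright enough but had its spot flagged on control IgG replicate 2; its other levels were -1.58 and -1.25 on the CPEB3 IgG arrays, against -2.30 on control IgG replicate 1.

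**Figure D2:**
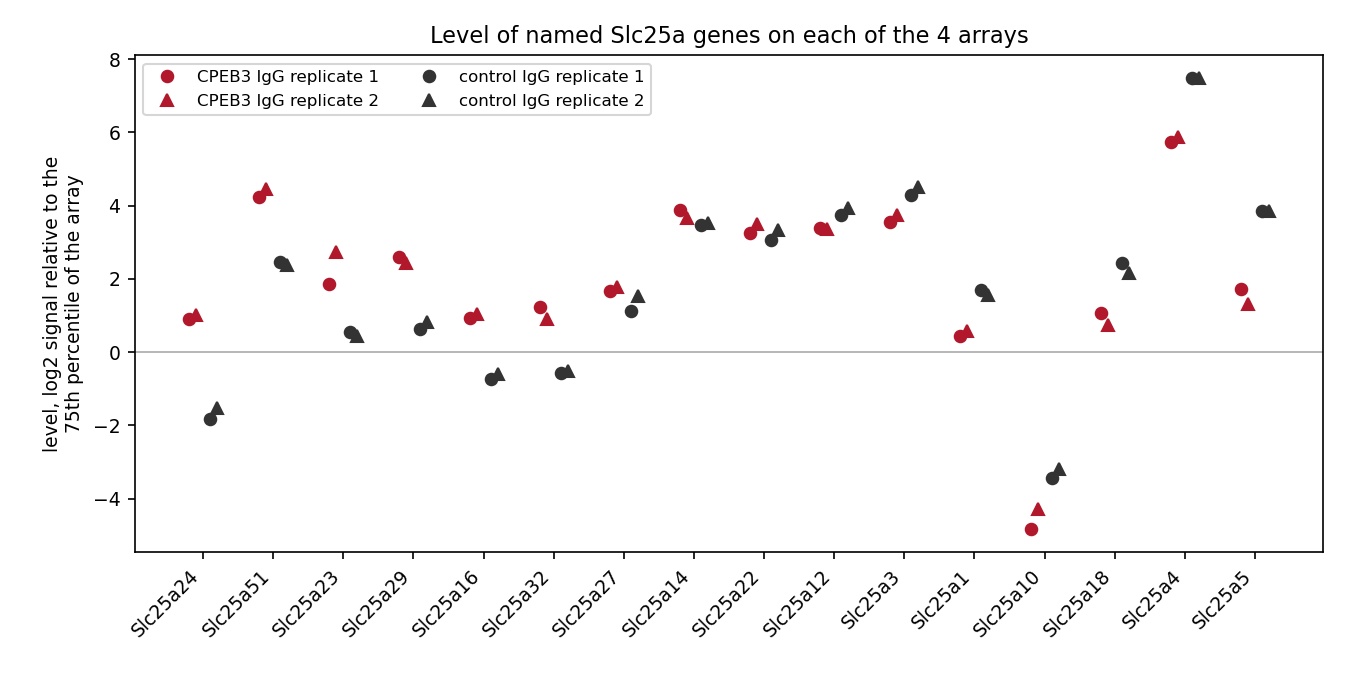
Level (log2 signal relative to the 75th percentile of the array, y axis) of 16 Slc25a genes on each of the 4 arrays, with red for CPEB3 IgG, black for control IgG, circles for replicate 1 and triangles for replicate 2. Red points lie above black for Slc25a24 (0.90 and 1.01 against -1.82 and -1.54) and below black for Slc25a5 (1.72 and 1.32 against 3.85 and 3.85).

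The difference also followed where on its transcript a probe lies. Positions are the start of each probe on its own transcript, in nucleotides from the 5′ end, as the array files give them. The brightest probes of the 6 lower genes started between 913 and 1261 (median 1105), and those of the 11 higher genes between 451 and 4377 (median 2544). Over the 41 carriers, Spearman's rho between position and difference was 0.58, and over 16950 other genes it was 0.36; these are descriptions across genes measured on the same arrays. In carriers probed before position 1000 the median difference was -0.90 (4 genes), from 1000 to 2000 it was 0.12 (19 genes), from 2000 to 3000 it was 0.40 (11 genes) and beyond 3000 it was 1.05 (7 genes). Other genes showed the same order over a narrower range, at -0.41, -0.17, 0.13 and 0.49. The share of other genes called higher rose along these bins from 9.21% to 19.4%, 28.8% and 42.5%. Slc25a39 departed from the order, being higher with a probe at 451. The part of probe position in the calls of the carriers was not tested.

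Probes of 1 gene show the position within a single transcript. At the level of probes, 12 of the 51 fitted carrier probes were higher (15.8% of all probes were) and 9 were lower (18.9% of all probes were), which made 21 calls, against 34.7% of all probes called in either direction. Of the carriers, 10 had a pair of fitted probes, and 0 of 10 pairs differed at an adjusted p under 0.05 in limma (14.9% of all 12929 pairs did), although 5 had an unadjusted p under 0.05. In the 8 pairs on a shared transcript the probe nearer the 3′ end had the higher difference in 6, and among other genes this held for 75.7% of 4500 pairs. In the 6 pairs at least 500 nucleotides apart, a distance chosen after the values were seen, it held in 6, and in other genes in 79.9% of 2980. Of these, 3 genes are shown by their probes at the 5′ side, whole, and for Slc25a26 also by 30 bases of its 3′ probe, with the polyadenylation-signal variant ATTAAA in capitals:
Slc25a26 at 697: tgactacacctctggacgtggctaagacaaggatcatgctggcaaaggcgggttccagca
Slc25a26 at 1777: aaatgaacctttATTAAAgacactttatgc
Slc25a33 at 641: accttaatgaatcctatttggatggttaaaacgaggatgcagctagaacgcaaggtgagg
Slc25a37 at 304: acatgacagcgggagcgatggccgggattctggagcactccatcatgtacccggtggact
The Slc25a26 probes lie at chr6:94548392-94549185 and chr6:94554505-94554564 (plus strand, mm9), and the first covers 794 bases of genome for its 60 bases, so it is split over a gap. The Slc25a33 probe at chr4:149123432-149126565 (minus strand) covers 3134 bases of genome in the same way, and the Slc25a37 probe lies at chr14:69902797-69902856 (minus strand).

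In Slc25a26 the 5′ probe had levels of -1.41 and -1.45 on the CPEB3 IgG arrays, against -0.71 and -0.65 on the control arrays. It was called lower (-0.75), a call lost when any 1 of the 4 arrays was left out (-0.78 to -0.72) and with median (-0.46), spike-in (-0.037) or no scaling (-0.79) or no filter on dim probes, while the 3′ probe gave -0.11 with overlapping groups; the pair differed by 0.64 ± 0.20 (adjusted p 0.110). In Slc25a33 the 5′ probe passed narrowly (-0.76, adjusted p 0.0496 over probes) and the 3′ probe at position 1249 gave -0.27. That call was lost in 11 of the 17 alternative settings, among them each that left out 1 array (-0.92 to -0.60), the replicate block, and quantile (-0.68) and cyclic loess scaling (-0.71). In Slc25a37 the 5′ probe gave 0.32 with overlapping groups, and the 3′ probe at 3990 gave the 1.05 on which the gene was called. Slc25a46 showed the opposite roles of brightness: its brighter probe at 2889 gave 0.27 and was not called, and its dimmer probe at 4182 gave 1.11 and was called higher, but not with any 1 of the 4 arrays left out (0.94 to 1.27) or with no scaling (1.07). For Slc25a51 the probes at 1692 and 4377 gave 1.36 and 1.93. Slc25a53, with probes at 1260 and 3098, gave -0.097 and 0.019, which differed by less than their error. Slc25a44 had its probes on separate transcript records, at -0.45 (position 989) and 0.52 (position 3376). The second Slc25a5 probe, at -0.88 and not called, is placed by the files on chromosome 14 rather than X, so it may read a near-identical copy and is uncertain.

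**Figure D3:**
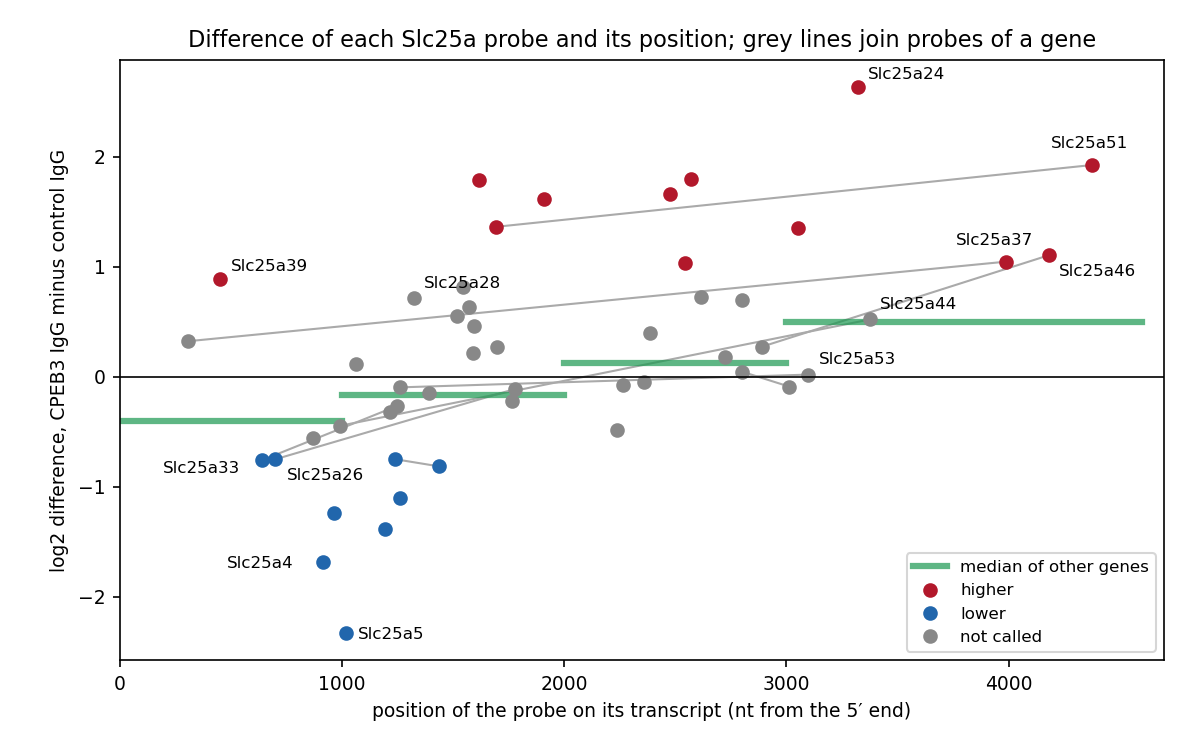
Log2 difference (CPEB3 IgG minus control IgG, y axis) of the fitted Slc25a probes with a RefSeq record against the start of the probe on its transcript (nucleotides from the 5′ end, x axis), coloured by the limma call over probes. The second Slc25a5 probe is not drawn. Grey lines join probes of a gene, including those of Slc25a44, which lie on separate transcript records. Green bars give the median of other genes in each bin (-0.41, -0.17, 0.13 and 0.49). Blue points gather at the left and red points toward the right.

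The probe sequences were searched for the letters known for CPEB proteins and for 3′ ends. The search covered both strands of the 50 carrier probes and of all 22677 fitted probes with a RefSeq record. TTTTAT, the DNA form of the cytoplasmic polyadenylation element, was in 4 carrier probes (8%) on the transcript strand, against 4.36% of all probes. Those 4 are shown by 30 bases each, with the element in capitals:
Slc25a5: gattctctgagcttgtctgTTTTATcagtg
Slc25a13: tgctttgggccgTTTTATtatagagacaga
Slc25a34: actcctgaacactccaataaagTTTTATat
Slc25a40: cactttatcacgTTTTATgtgtattctatg
They come from chrX:34338580-34338639 (plus strand), chr6:5991482-5991541 (minus), chr4:141174747-141174806 (minus) and chr5:8454558-8454617 (plus), all mm9. The element did not sort the carriers: Slc25a40 was higher, Slc25a5 had the most negative difference of the family, and Slc25a13 and Slc25a34 did not pass the test. Over all probes the median difference was 0.60 with the element and -0.091 without it. This gap was not particular to the element: medians were 0.50 with TTTTT and -0.13 without, and 0.53 with TTTTAAT and -0.074 without. The gap was smaller for AATAAA (0.025 with, -0.082 without) and ATTAAA (0.10 with, -0.077 without). The runs TTTTT were in 5 carrier probes (10% against 12.0% of all), TTTTAAT in 1 (2% against 1.06%, in Slc25a53), AATAAA in 7 (14% against 14.0%) and ATTAAA in 5 (10% against 4.72%), on the transcript strand; TTTTT and the other motifs can overlap. On the opposite strand TTTTAT was in 0 of the 50 carrier probes and in 6.16% of all probes. The genes with the largest positive differences are shown by 30 bases, with a thymidine run or ATTAAA in capitals:
Slc25a24: catcttgtatcTTTTTTggggaaaaaaccc
Slc25a51: cttcttttcgttATTAAAagtagctaaaca
These lie within chr3:108971266-108971325 (plus strand) and chr4:45408796-45408855 (minus strand), mm9. The thymidine share of a probe went with the difference over other genes (rho 0.31, 16950 genes) and hardly over the carriers (rho 0.04, 41 genes). A probe covers 60 bases, so a motif elsewhere in the transcript was not looked for.

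Genes that surround the family in the mitochondrial membranes were read in the same fit. By their brightest probes, carriers of the same fold that bear other names were not called: Ucp2 (-0.12) and Ucp3 (-0.31), uncoupling proteins, and Mtch1 (-0.27) and Mtch2 (0.14), outer membrane relatives, did not pass, and Ucp1, the uncoupling protein of brown fat, was not well above background. A dimmer Mtch2 probe at position 1983 gave 1.56 and was called higher (adjusted p 0.00698 over probes), against 0.14 for the brightest one at 975, and by the mean of its probes Mtch2 was called higher too (0.85). The machinery that imports carriers moved in both directions, with 7 of 16 genes higher and 5 lower (median 0.29), against 19.2% of all genes higher and 20.2% lower. With spike-in scaling limma called 7 higher and 0 lower, against 18.3% and 2.50% of all genes. Tomm40, counted as higher by its probe at 1561 (1.09), was called lower by its probe at 725 (-1.25). Tomm5 (2.01 ± 0.23) and Tomm70a (1.36 ± 0.26), parts of the outer membrane translocase, and Agk (1.53 ± 0.15), a subunit of the carrier translocase of the inner membrane, were the most raised. Timm13 (-1.54 ± 0.24) and Timm9 (-1.32 ± 0.18), chaperones of the intermembrane space, and Timm22 (-1.23 ± 0.17), the channel that inserts carriers, were the most lowered. Tomm70a was not called without CPEB3 IgG replicate 2 (1.07) or without the first control array (1.22), nor Timm22 without CPEB3 IgG replicate 2 (-1.11).

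The list of other mitochondrial membrane transport also holds regulators and enzymes, such as Ppif and Ckmt1. Of its 25 fitted genes, 2 were higher with CPEB3 IgG and 13 were lower (median -0.73), where 19.2% and 20.2% of all genes were. No test between the lists was made. Ppif, the cyclophilin of the permeability pore (1.80 ± 0.15), and Sfxn2, a sideroflexin (0.84 ± 0.17), were higher. Tspo, the outer membrane translocator protein (-2.12 ± 0.25), Letm1, a cation exchanger (-1.95 ± 0.17), and Sfxn4, another sideroflexin (-1.58 ± 0.17), were lower. With spike-in scaling none of the 25 was called lower, against 2.50% of all genes. A second Letm1 probe, at 3212 rather than 2172, gave -0.57 and was not called, and Sfxn2 was not called without the first (0.93) or second (0.74) CPEB3 IgG array or without control IgG replicate 2 (0.73).

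**Figure D4:**
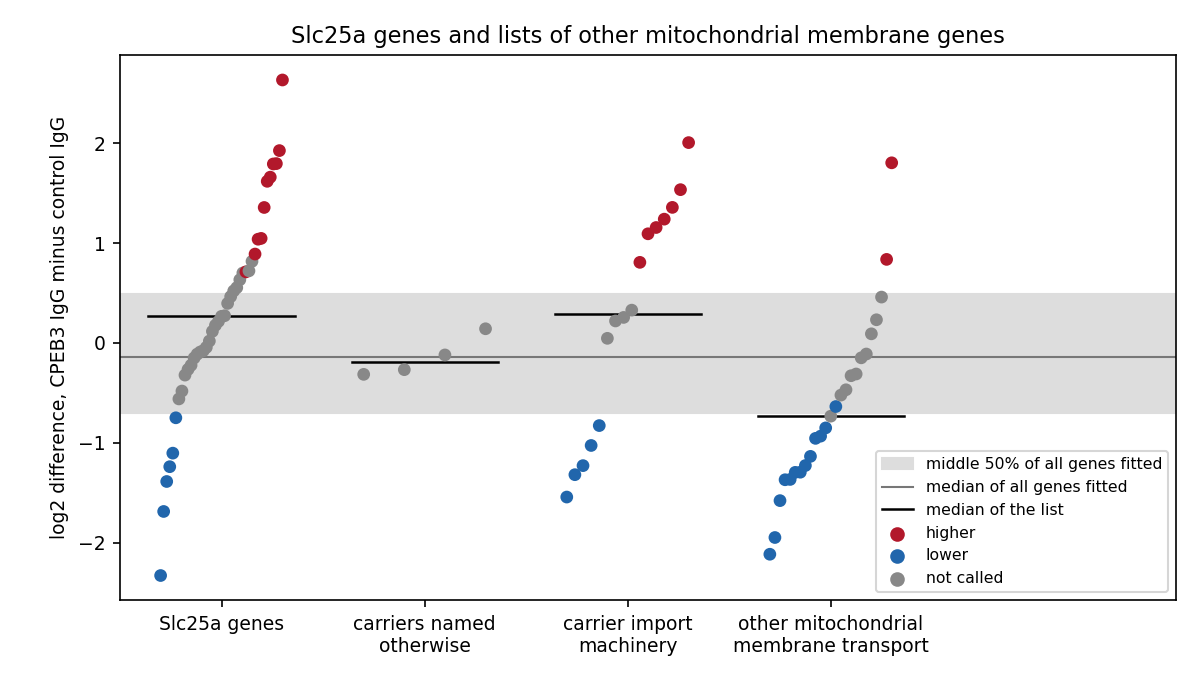
Log2 difference (CPEB3 IgG minus control IgG, y axis) of each fitted gene in 4 lists, ordered within a list, with a black line at the list's median (0.27, -0.19, 0.29 and -0.73 from left to right) and a grey line at the median of all genes (-0.14). Red and blue points, higher and lower by limma, occur in the Slc25a list, the import list and the list of other membrane transport, and none in the carriers named otherwise.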

How the data were processed

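The deposited files hold 1-colour spot intensities from Agilent Feature Extraction, per the file headers: mean brightness after background subtraction and detrending within the array, with substitute values near background and no normalisation between arrays. The normexp alternative (offset 50) started from the deposited mean spot and local background intensities. Control and flagged spots were left out, spots of a probe were averaged, and 40616 of 55681 probes, those well above background on 2 or more of the 4 arrays, were kept. Symbols were updated through unversioned RefSeq accessions of a GRCm38 table, which matched 27509 probes. Probe positions, sequences and mm9 coordinates come from the files, and exons and untranslated regions were not annotated here. limma 3.58.1 in R 4.3.3 (lmFit, eBayes, no block) was fitted over all genes, all probes and all probe pairs, and the script was tested on simulated data.

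The members, substrate classes, gene lists and tests were chosen with earlier results of these data known. Every carrier was named, except 1 that is counted but not reported here. Values on each array were given for the 6 largest called differences in each direction, the ADP/ATP class and 5 preset genes (Slc25a3, Slc25a12, Slc25a22, Slc25a14, Slc25a27). For the lists of other genes, up to 3 called members in each direction and all carriers named otherwise were named.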

Additional observations from a re-analysis of the deposited data

How the results depend on the processing

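The slide and scan block was not run, since the 4 arrays share 1 slide and 1 scan. The causes of the changes below were not tested. The shares of all genes called changed too, from 19.2% higher and 20.2% lower in the main setting. They became 24.5% and 11.3% with median, 18.3% and 2.50% with spike-in and 11.2% and 13.1% with no scaling. With no filter on dim probes they were 12.5% and 11.8%, and with the mean of probes 16.8% and 20.0%. With any 1 array left out, both shares fell as well. Shares of all genes at stricter thresholds, and of all probes by setting, are not given. Fitting probes with a flagged spot on the other arrays, an alternative chosen after seeing the data, gave 42 carriers, with 11 higher and 6 lower.

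The carriers called higher (11) fell to 7 with no scaling and to 6 at adjusted p 0.01, and were 7 to 10 with 1 array left out. Those called lower (6) were 1 with spike-in scaling, 2 at adjusted p 0.01, and 3 to 5 with 1 array left out. Probes called higher (12) were 7 at adjusted p 0.01 and 7 to 10 with 1 array left out. Probes called lower (9) were 5 with median scaling, 1 with spike-in scaling, 4 with no scaling, 4 with no filter on dim probes, 2 at adjusted p 0.01, 5 at 2-fold or more, and 2 to 4 with 1 array left out. Probe pairs called (0) were 2 with normexp background (Slc25a44 and Slc25a5) and 2 with quantile scaling (Slc25a46 and Slc25a5). They were 1 with cyclic loess (Slc25a5) and 1 with the filter on all 4 arrays (Slc25a46). Of these, only the Slc25a46 pair has both probes on the same transcript record. Import genes called higher (7) were 4 with no scaling and 3 to 6 with 1 array left out; those called lower (5) were 3 with median scaling, 0 with spike-in scaling, 3 with no scaling, 2 at adjusted p 0.01 and 2 to 4 with 1 array left out. Other transport genes called higher (2) were 1 with no scaling, with the mean of probes, at adjusted p 0.01 and at 2-fold or more, and 1 to 2 with 1 array left out; those called lower (13) were 8 with median scaling, 0 with spike-in scaling, 6 at adjusted p 0.01 and 6 to 10 with 1 array left out.

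The replicate numbers are shared by the groups but no label ties them to a litter or day. Deviations of arrays with the same number correlated at 0.391 over 27687 genes. With the replicate block 12 carriers were higher (Slc25a34, 0.72, was added) and 6 lower, 14 probes were higher and 9 lower, 0 pairs were called, and the 5′ probe of Slc25a33 was no longer called; over all genes 5759 were higher and 6654 lower.

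The signs that changed belonged to differences that were not called. With median scaling the values became 0.25 for Slc25a21, 0.20 for Slc25a25, 0.18 for Slc25a26, 0.025 for Slc25a33, 0.21 for Slc25a36, 0.14 for Slc25a45, 0.17 for Ucp2 and 0.022 for Mtch1. With spike-in scaling they became 0.23 for Slc25a12, 0.16 for Slc25a20, 0.67 for Slc25a21, 0.62 for Slc25a25, 0.60 for Slc25a26, 0.45 for Slc25a33, 0.64 for Slc25a36, 0.57 for Slc25a45, 0.39 for Slc25a47, 0.60 for Ucp2, 0.45 for Mtch1 and 0.40 for Ucp3. With quantile scaling they became 0.32 for Slc25a21, 0.022 for Slc25a36, 0.12 for Slc25a45 and 0.013 for Ucp2, and with cyclic loess 0.30 for Slc25a21 and 0.10 for Slc25a45. Slc25a53 turned to -0.017 with no scaling, -0.039 with the mean of probes, and ranged from -0.22 to 0.26 with 1 array left out. With 1 array left out Slc25a21 ranged from -0.39 to 0.31, Slc25a36 from -0.17 to 0.018 and Ucp2 from -0.29 to 0.050. The dimmer Slc25a25 probe turned to -0.060 with quantile scaling and -0.049 with cyclic loess and ranged from -0.046 to 0.14 with 1 array left out, and the 5′ Slc25a37 probe then ranged from -0.12 to 0.76. The 5′ Slc25a44 probe turned to 0.27 with spike-in scaling. The 5′ Slc25a53 probe turned to 0.19 with quantile, 0.19 with median, 0.18 with cyclic loess and 0.62 with spike-in scaling, and ranged from -0.25 to 0.059 with 1 array left out.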
